A study of Mus musculus with 6 samples.

Results

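The hedgehog genes described here are the ligand Shh, the receptors Ptch1 and Smo, the co-receptors Boc and Gas1, the antagonist Hhip and the transcription factors Gli1, Gli2 and Gli3. They were taken as every probe whose gene name in the array files was one of these symbols, which gave 17 probes of 9 genes, out of 41174 probes and 28034 genes. The rule used no measured value. RNA came from the anterior presomitic mesoderm (the unsegmented tissue about to form somites) and somites I to IV, the 4 most recently formed, dissected at embryonic day 9.5. Paraxis-/- tissue, which lacks the transcription factor encoded by Tcf15, was compared with wild-type (WT) tissue, and C57BL/6J is given as the strain of both. Each genotype had 3 pools of 5 embryos, and each pair of pools (A, B and C) shared 2 two-colour Agilent arrays with the dyes swapped. Pair B set Paraxis-/- pool C against WT pool B, and pair C set Paraxis-/- pool B against WT pool C. The labels do not say which bases of the gene were removed, and no group had hedgehog signalling itself altered.

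Hedgehog ligands bind Ptch1, which otherwise holds Smo inactive, and Smo then acts through Gli2 and Gli3. Gli1, Ptch1 and Hhip are themselves induced by the signal and are commonly read as its output. In the somite, Shh from the notochord and floor plate is known to induce sclerotome, the precursor of vertebrae and ribs, with its markers Pax1 and Nkx3-2. The comparison therefore asks whether hedgehog genes and their response genes differed in Paraxis-/- tissue beside sclerotome markers such as Pax1.

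Tcf15 itself checked the labels, with levels of 9.81, 9.76 and 9.71 in the Paraxis-/- pools of pairs A, B and C, against 15.04, 15.24 and 15.23 in their WT partners. Levels are log2 spot intensities after normalization, and they may be set between pools for a probe but not between probes. Of 19335 genes tested across the 3 pairs with limma, 4 passed an adjusted p of 0.05 (0.0207%), namely Tcf15 and Pax1, which were lower, and Snhg11 and AK047604, which were higher. Leaving out pair A or pair C left 2 calls, Tcf15 and Pax1, and leaving out pair B left 0, where Tcf15 had an adjusted p of 0.087. Pair A stood apart, and it was also alone on its slide, so pair and slide cannot be told apart. Tbx6, a marker of presomitic mesoderm named here after its values were seen, had levels of 12.46, 12.10 and 12.90 in the Paraxis-/- pools of pairs A, B and C, against 10.03, 12.69 and 12.68 in the WT pools. The low value was that of WT pool A. Means that moved by over 1.5 times or turned without pair A are therefore given without it too for the 9 hedgehog genes.

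None of the 9 hedgehog genes changed past the threshold, and the smallest adjusted p among them was 0.77 (limma, Benjamini-Hochberg). Without adjustment, 1 of the 9 had p under 0.05, beside 5.07% of all genes. The log2 ratios of Paraxis-/- over WT lay between -0.37 and 0.29, with 4 above 0 and 5 below. Of all 19335 genes, 9974 averaged above 0. Their median was -0.07, beside 0.00 for all tested genes. The median size of a difference, whatever its sign, was 0.14 for the 9 genes and 0.07 for all genes. The same direction in all 3 pairs was seen for 2 of the 9, beside 25.7% of all genes, and the pools of the genotypes did not overlap for 1 of the 9, beside 5.99%. Of the 14 hedgehog probes kept for a test none was called, beside 0.0141% of all probes, 1 had an unadjusted p under 0.05, beside 5.67%, and 3 had the same direction in all pairs, beside 26.6%. Because the tissue was measured in bulk, fewer cells of a type and less RNA per cell cannot be told apart in any of these values.

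**Figure D1:**
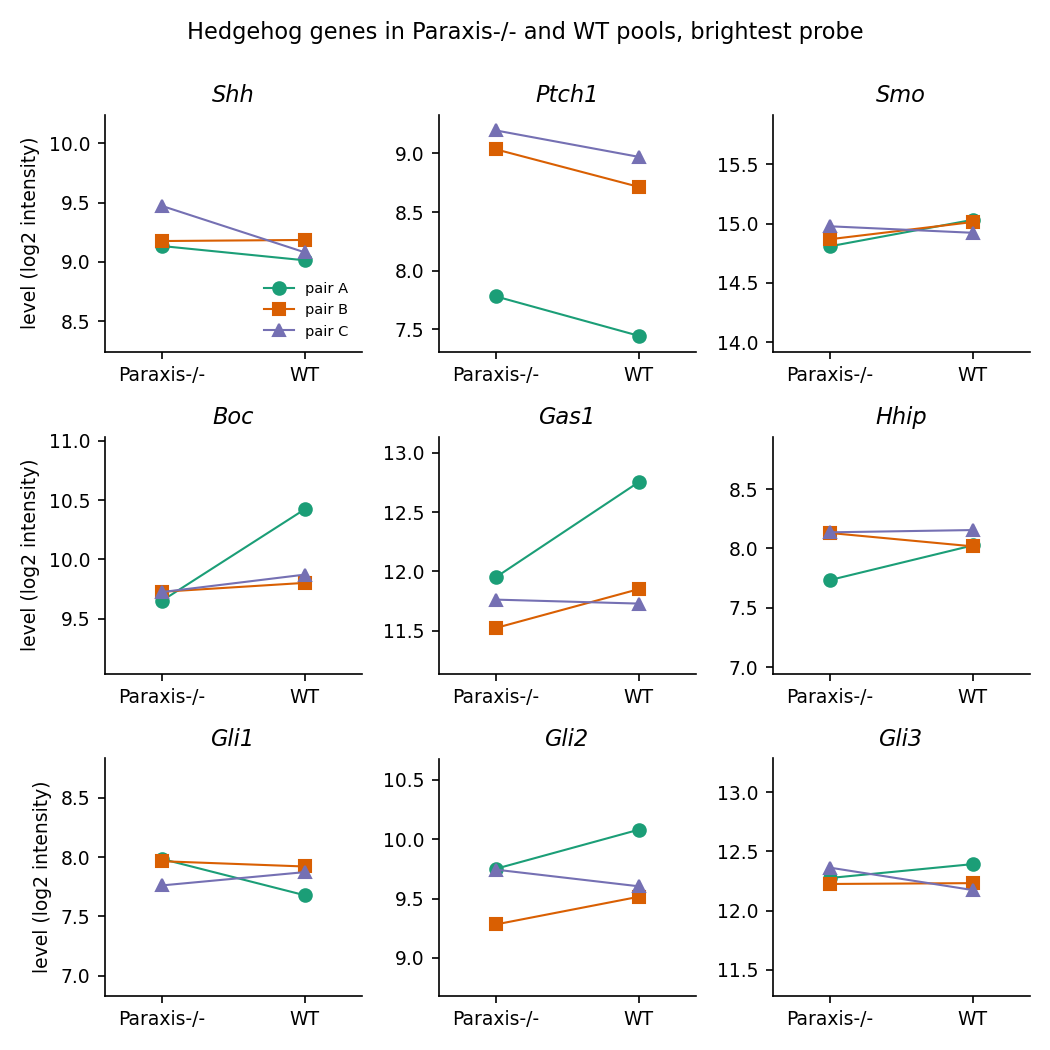
Level of each of the 9 hedgehog genes (log2 intensity, brightest probe of the gene) in the Paraxis-/- pool and the WT pool of pairs A, B and C, joined by a line for each pair. The vertical axis spans at least 2 log2 units in every panel. Boc and Gas1 stood highest in WT pool A, and the brighter Ptch1 probe was low in both pools of pair A.

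The sequences of 3 probes, each of 60 bases, are given, for Gli1, Smo and Gli2. The Gli1 probe stood for its gene in the gene values, whereas the Smo and Gli2 probes shown are dimmer than the ones that did. All 3 were chosen among those that can be read through without a stop codon in at least 1 forward frame. No letter is capitalised since none is singled out. The Smo probe covers 1234 bases of the genome (build mm9), so it crosses a junction in the spliced transcript. The exon or untranslated region of each probe is not annotated here.
Gli1, chr10:126767991-126768050, minus strand: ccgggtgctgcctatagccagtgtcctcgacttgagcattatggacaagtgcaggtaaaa
Smo, chr6:29705582-29706815, plus strand: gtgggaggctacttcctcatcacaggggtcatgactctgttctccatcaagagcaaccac
Gli2, chr1:120732839-120732898, minus strand: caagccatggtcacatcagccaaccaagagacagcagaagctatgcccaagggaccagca

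On average, the ligand Shh was slightly above its WT level in Paraxis-/- tissue, and a small fall lay within its 95% interval. Its probe (chr5:28783983-28784042, minus strand), printed in 10 copies on each array, had levels of 9.13, 9.18 and 9.47 in the Paraxis-/- pools of pairs A, B and C, against 9.01, 9.19 and 9.08 in the WT pools. The groups overlapped, and the Paraxis-/- pool of pair C alone lay above every WT pool. The log2 ratio was 0.17 with a standard error (SE) of 0.10 and a 95% interval of -0.09 to 0.42, and the adjusted p was 0.95 (limma). Without pair C the ratio was 0.06. Copies of the probe agreed closely, since their SD within an array was between 0.03 and 0.06, and pair C gave 0.39 and 0.40 in its 2 dye orientations. The spread between pairs (SD 0.20) was thus larger than that between copies.

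Notochord and floor plate make Shh at this stage, as does gut endoderm, and the other markers of notochord and floor plate were set beside it. Of 13 such markers, Shh included, 11 were tested and none passed the threshold (limma). An unadjusted p under 0.05 was seen for 1 of the 11, beside 5.07% of all genes. Their mean level was between 8.81 and 9.03 in the Paraxis-/- pools and between 8.74 and 8.86 in the WT pools. In pair C, where Shh was highest, 7 of the 11 were above 0. For Ntn1, a guidance cue of the floor plate, the log2 ratio was -0.55 (SE 0.10, adjusted p = 0.57), and for Spon1, a floor plate adhesion protein, it was 0.38 (SE 0.17, adjusted p = 0.95). The part of this tissue in the Shh values was not tested.

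Other genes of ligand production and release showed no change past the threshold. Of 8 listed, 6 were tested, none was called (limma) and none had an unadjusted p under 0.05. Their median log2 ratio was 0.06. Scube1, which helps release the lipid-bearing ligand, had the smallest p, with ratios of -0.25, 0.48 and 0.49 in pairs A, B and C. The other ligands Ihh and Dhh had 0.06 (SE 0.07) and 0.10 (SE 0.12), and Disp1, the transporter that frees the ligand from the cell that makes it, had 0.06 (SE 0.07).

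The receptor Ptch1, which the pathway induces, was the hedgehog gene with the smallest p and lay above 0 in every pair. Its brighter probe (chr13:63610298-63610357, minus strand) had levels of 7.78, 9.03 and 9.20 in the Paraxis-/- pools of pairs A, B and C, against 7.44, 8.71 and 8.97 in the WT pools. The groups overlapped only because both pools of pair A were low, and within each pair the Paraxis-/- pool was the higher. The log2 ratio was 0.29 (SE 0.07, 95% interval 0.12 to 0.47), or 1.23-fold, with an unadjusted p of 0.0079 and an adjusted p of 0.77 (limma). With 3 pairs, an exact sign-flip test cannot go below 0.25. The ratio was as large without pair A, at 0.27.

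The second Ptch1 probe (chr13:63612907-63612966, minus strand), also printed in 10 copies, gave a smaller difference. It had levels of 7.80, 7.81 and 7.54 in the Paraxis-/- pools of pairs A, B and C, against 7.66, 7.69 and 7.62 in the WT pools. Its log2 ratio was 0.06 (SE 0.08, 95% interval -0.14 to 0.25, adjusted p = 0.96, limma), and pair C went the other way, at -0.08. The brighter probe exceeded it by 0.20, 0.21 and 0.30 in pairs A, B and C. A higher Ptch1 level thus rested on 1 of its 2 probes.

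Among all tested genes, those with pair ratios nearest to the brighter Ptch1 probe were Aff1, Zfpm2 and Pmp22. Likeness was the Euclidean distance over the 3 pair ratios, and it was 0.02, 0.02 and 0.03. Aff1 is a transcription elongation factor, Zfpm2 a cofactor of GATA factors and Pmp22 a myelin protein. A distance over 3 values is a description only.

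Smo, which passes the signal into the cell, was slightly below its WT level on average. Its brightest probe (chr6:29711225-29711284, plus strand) had levels of 14.81, 14.87 and 14.98 in the Paraxis-/- pools of pairs A, B and C, against 15.03, 15.01 and 14.92 in the WT pools. The groups overlapped through pair C. Its mean log2 ratio was -0.10 (SE 0.08, 95% interval -0.32 to 0.11, adjusted p = 0.95, limma), and median centring in place of loess turned it to 0.01. Without pair A it was -0.05, and without pair C -0.18.

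The junction-crossing Smo probe shown above had levels of 7.25, 7.13 and 7.30 in the Paraxis-/- pools of pairs A, B and C, against 7.50, 7.51 and 7.32 in the WT pools. These groups did not overlap, but the nearest 2 pools, both of pair C, were almost level. Its log2 ratio was -0.22 (SE 0.09, adjusted p = 0.88, limma), made of -0.49 with Paraxis-/- RNA in Cy5 and 0.05 with WT RNA in Cy5. The third probe (chr6:29687915-29687974, plus strand) was well above background in 4 of 6 Paraxis-/- and 5 of 6 WT measurements. It averaged -0.18 (SE 0.09, adjusted p = 0.89), made of 0.32 with Paraxis-/- RNA in Cy5 and -0.67 with WT RNA in Cy5. For both of these dim Smo probes the dye orientations differed by more than the genotypes did.

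**Figure D2:**
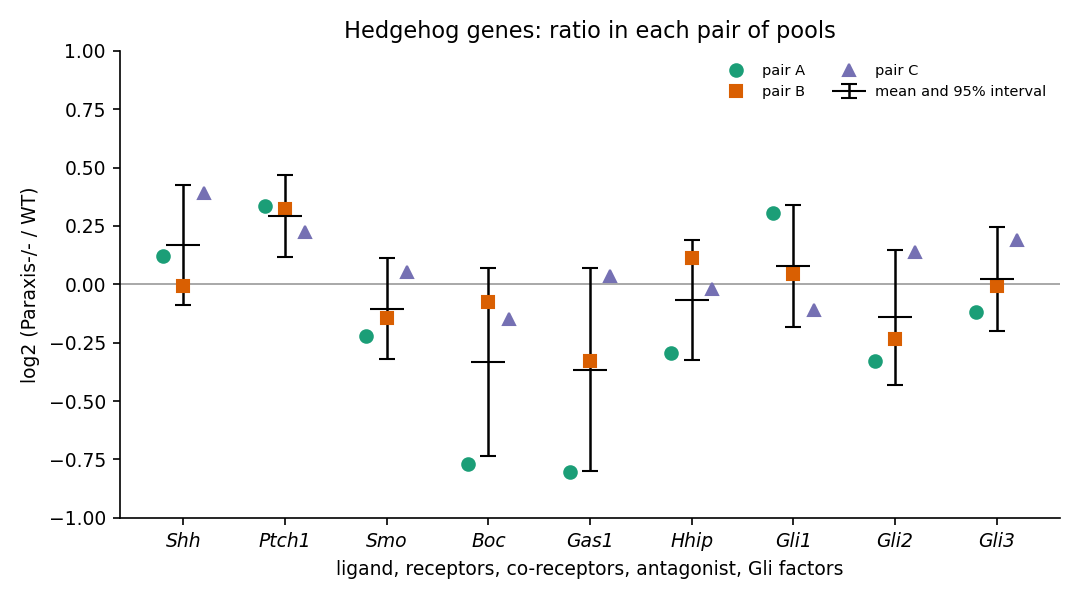
Log2 ratio of Paraxis-/- over WT in pairs A, B and C (points) for the 9 hedgehog genes, with the mean of the pairs (horizontal bar) and its 95% interval from limma (whiskers, not adjusted for the number of genes). The interval of Ptch1 lies above 0, from 0.12 to 0.47, and those of the other 8 genes include 0. The lowest points of Boc and Gas1 are both of pair A.

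The co-receptors Boc and Gas1, which bind the ligand at the cell surface together with Ptch1, had the largest differences of the 9 genes, both of them lower in Paraxis-/- tissue on average and neither past the threshold. Boc (chr16:44485845-44485904, minus strand) had levels of 9.65, 9.73 and 9.72 in the Paraxis-/- pools of pairs A, B and C, against 10.42, 9.80 and 9.87 in the WT pools. Every Paraxis-/- pool lay below every WT pool, beside 2.88% of all genes, and WT pool A was far above the others. The log2 ratio was -0.33 (SE 0.16, 95% interval -0.73 to 0.07, adjusted p = 0.95, limma). Without pair A it was -0.11. The other 2 Boc probes (chr16:44499199-44499258 and chr16:44485627-44485690, minus strand) were not well above background in any measurement of either genotype and were not tested.

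Gas1 (chr13:60276399-60276458, minus strand), an anchored membrane protein, had levels of 11.95, 11.52 and 11.76 in the Paraxis-/- pools of pairs A, B and C, against 12.75, 11.85 and 11.73 in the WT pools. The groups overlapped, with WT pool A again the highest and pair C level. Its mean log2 ratio was -0.37 (SE 0.17, 95% interval -0.80 to 0.07, adjusted p = 0.95, limma), and without pair A it was -0.15. In pair A the ratio was -0.43 with WT RNA in Cy5 and -1.17 with Paraxis-/- RNA in Cy5.

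Pair A gave the largest difference of the 3 pairs, whatever its sign, for 7 of the 9 hedgehog genes, beside 43.3% of the 19262 genes measured in all pairs. The median size of the ratio in pair A was 0.31 for the hedgehog genes and 0.13 for all genes. In pairs B and C it was 0.11 and 0.14 for the hedgehog genes, and 0.09 and 0.11 for all genes. The 13 paraxial mesoderm markers checked the labelled tissue, and 12 were tested. Their mean level was between 11.03 and 11.19 in the Paraxis-/- pools and between 11.62 and 11.97 in the WT pools. In pairs A, B and C, 6, 0 and 4 of the 12 lay above 0. An unadjusted p under 0.05 (limma) was seen for 6 of the 12, all lower and Tcf15 among them, beside 5.07% of all genes. The same direction in all 3 pairs was seen for 6, all lower, beside 25.7% of all genes. The mean levels include the deleted gene. Without Tcf15 the other 11 averaged 11.15 to 11.33 in the Paraxis-/- pools and 11.31 to 11.67 in the WT pools, so the groups overlapped. Within every pair the Paraxis-/- pool was the lower. It had 11.26, 11.15 and 11.33 in pairs A, B and C, against 11.31, 11.67 and 11.63 in the WT pools. The part of the makeup of the dissected tissue in the Boc and Gas1 values was not tested.

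The other receptors and co-receptors all lay above 0 on average. Of 4 tested none passed the threshold (limma), none had an unadjusted p under 0.05, and their median log2 ratio was 0.17. Lrp2, an endocytic receptor that binds Shh, had 0.85, -0.10 and 0.34. Gpc3, a proteoglycan that binds hedgehog ligands, had a log2 ratio of 0.18 (SE 0.10). Cdon, the close relative of Boc, had -0.28, 0.11 and 0.41, so it was lower in pair A and higher in the others.

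Hhip, which binds the ligand and limits its action and is itself induced by the signal, did not differ beyond the spread between pairs. Its brighter probe (chr8:82496214-82496273, minus strand) had levels of 7.73, 8.13 and 8.14 in the Paraxis-/- pools of pairs A, B and C, against 8.03, 8.02 and 8.16 in the WT pools. The Paraxis-/- pool of pair A was the lowest of the 6 and the rest were close together. On average the log2 ratio was -0.07 (SE 0.10, 95% interval -0.32 to 0.19, adjusted p = 0.98, limma), and it was 0.05 without pair A. A second probe (chr8:82490729-82490788, minus strand) was well above background in 1 of 6 Paraxis-/- and 2 of 6 WT measurements and was not tested.

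Gli1, the most direct readout among the Gli factors because its own transcription depends on the signal, did not differ beyond the spread between pairs. The 10 copies of its probe, shown above, gave levels of 7.99, 7.97 and 7.76 in the Paraxis-/- pools of pairs A, B and C, against 7.68, 7.92 and 7.87 in the WT pools. The groups overlapped, and the pairs went in both directions, at 0.31, 0.04 and -0.11. The log2 ratio was 0.08 (SE 0.10, 95% interval -0.18 to 0.34, adjusted p = 0.97, limma). It was -0.03 without pair A. With Paraxis-/- RNA in Cy5 it was -0.07 and with WT RNA in Cy5 0.22, so the dye moved Gli1 by more than the genotype did. The lower end of the interval, taken for this gene alone, corresponds to a level 1.13-fold lower.

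**Figure D3:**
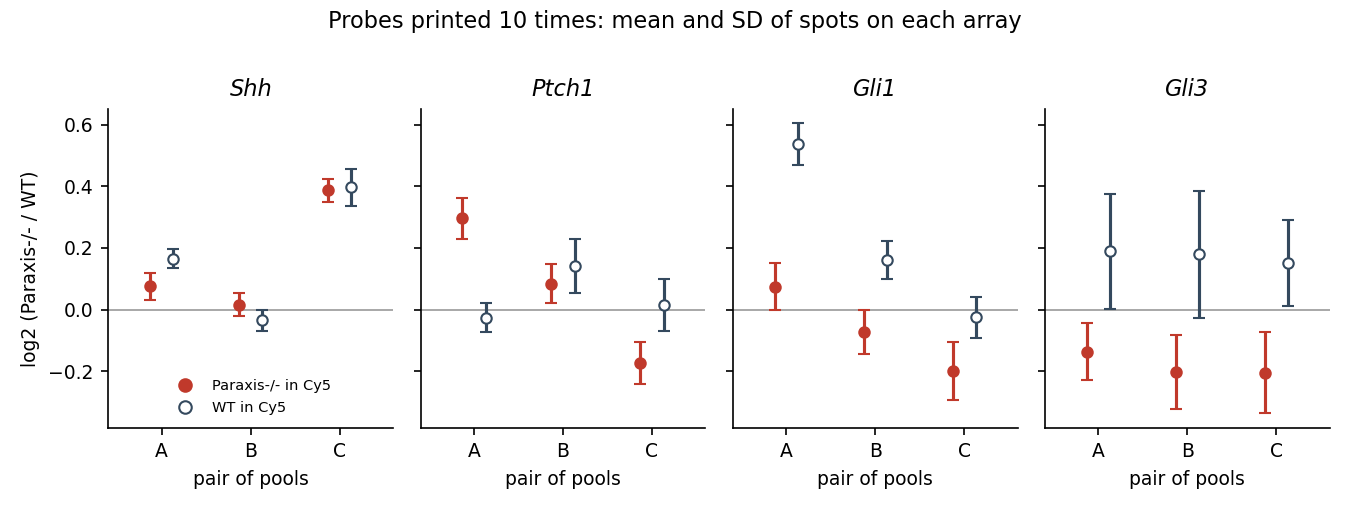
Log2 ratio of Paraxis-/- over WT for the 4 probes printed in 10 copies, on each array of pairs A, B and C, as the mean of the copies with their SD (outlier spots left out, 7 to 10 copies per array). Filled points have Paraxis-/- RNA in Cy5 and open points WT RNA in Cy5. The orientations nearly coincide for Shh and lie apart by 0.32 to 0.38 for Gli3.

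Gli2, the main activator, lay below WT in 2 of 3 pairs. Its brighter probe (chr1:120731255-120731314, minus strand) had levels of 9.75, 9.28 and 9.74 in the Paraxis-/- pools of pairs A, B and C, against 10.08, 9.52 and 9.60 in the WT pools. The groups overlapped and pair C went the other way. Its mean log2 ratio was -0.14 (SE 0.11, 95% interval -0.43 to 0.15, adjusted p = 0.95, limma). Without pair A it was -0.05, and without pair C -0.28. The Gli2 probe shown above had pair ratios of 0.06, -0.22 and -0.12, with a mean of -0.09 (SE 0.08, adjusted p = 0.93). Both probes averaged below 0, but their directions differed in pairs A and C.

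Gli3, the main repressor in the absence of signal, was nearly level. Its brighter probe (chr13:15821502-15821561, plus strand) had levels of 12.27, 12.22 and 12.36 in the Paraxis-/- pools of pairs A, B and C, against 12.39, 12.23 and 12.17 in the WT pools. The groups overlapped almost wholly. The mean log2 ratio was 0.02 (SE 0.09, 95% interval -0.20 to 0.24, adjusted p = 0.99, limma), with both directions among the pairs. It was 0.09 without pair A and -0.06 without pair C. The second probe (chr13:15818729-15818787, plus strand), in 10 copies, had a mean ratio of -0.00 (SE 0.07, adjusted p = 0.997) and pair ratios of 0.03, -0.01 and -0.03. It was dim, with levels of 6.84 to 6.87 in the pools of both genotypes. It was well above background in 6 of 6 Paraxis-/- and 5 of 6 WT measurements. The pairs lay close together in each dye orientation, but around different means, -0.18 with Paraxis-/- RNA in Cy5 and 0.17 with WT RNA in Cy5.

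Between the receptors and the Gli factors stand the genes of signal transduction and of the primary cilium, the organelle in which vertebrate hedgehog signalling takes place. Of the 16 transduction genes tested none was called (limma) or had an unadjusted p under 0.05, and the median log2 ratio was -0.04. Grk2, a kinase that acts on Smo, had ratios of -0.19, -0.17 and -0.09 in pairs A, B and C (adjusted p = 0.95). On average, 2 of its 3 probes had that direction. Csnk1a1, a kinase of Gli proteins, had 0.16, 0.12 and 0.11 (adjusted p = 0.95), but only 2 of its 4 probes averaged above 0. Sufu, which holds Gli proteins in check and was named after its values were seen, had 0.02 (SE 0.09).

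Of 17 cilium genes tested none was called (limma) and 1 had an unadjusted p under 0.05, beside 5.07% of all genes. Their median log2 ratio was 0.07, with 15 of 17 above 0, but it depended on the dye, since it was -0.00 with WT RNA in Cy5 alone and 0.08 with Paraxis-/- RNA in Cy5 alone. The gene with the smallest p was Ift52, a component of the particle that carries cargo along the cilium, at 0.29, 0.45 and 0.71 in pairs A, B and C (mean 0.48, SE 0.10, adjusted p = 0.66). Only 1 of its 2 probes had that direction. Bbs4 had 0.18 (SE 0.08), Kif3b -0.15 (SE 0.07) and Kif3a 0.11 (SE 0.06), all with an adjusted p of 0.95. The direction was that of 1 of 2 probes for Bbs4 and for Kif3b, and of both probes for Kif3a. Bbs4 is a part of a ciliary cargo adaptor, and the kinesins Kif3a and Kif3b move cargo outward along the cilium.

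The response genes outside the 9 showed 1 call among 18 tested, beside 0.0207% of all genes. Pax1, a sclerotome marker, fell by 4.35 on the log2 scale (SE 0.13, adjusted p = 0.0046, limma). Its levels were 7.50, 7.18 and 7.29 in the Paraxis-/- pools of pairs A, B and C, against 12.19, 11.35 and 11.48 in the WT pools. The groups lay far apart in every pair. The adjusted p was 0.23 without pair B. These values are of the brightest Pax1 probe, and the mean over both Pax1 probes fell by 2.34 (adjusted p = 0.018, limma). The second probe thus fell far less, and the size of the fall rested on the brightest one.

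The other sclerotome markers named here did not pass the threshold. Of all 6 tested, Pax1 included, 1 passed the threshold, beside 0.0207% of all genes, and the median log2 ratio was -0.41. An unadjusted p under 0.05 (limma) was seen for 2 of the 6, all lower, beside 5.07% of all genes. The same direction in all 3 pairs was seen for 3 of the 6, all lower, beside 25.7% of all genes. Their mean level was between 9.18 and 9.32 in the Paraxis-/- pools and between 10.23 and 10.83 in the WT pools, and without Pax1 it was between 9.51 and 9.72 in the Paraxis-/- pools and between 9.9998 and 10.56 in the WT pools. Nkx3-2, a homeobox repressor active in cartilage formation, had ratios of -0.70, -0.14 and -0.12 in pairs A, B and C and was well above background in 4 of 6 Paraxis-/- measurements. Pax9, the partner of Pax1, had -1.74, 0.15 and 0.06, so its mean of -0.51 (SE 0.40) rested on pair A. Foxc2 had -0.24 (SE 0.11) and Sox9, which drives cartilage formation, 0.10 (SE 0.23), with an adjusted p of 0.95 for Foxc2 and 0.99 for Sox9.

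The response genes that are not sclerotome markers did not pass the threshold. Bcl2, a survival gene, had ratios of -0.30, -0.03 and -0.75 in pairs A, B and C (adjusted p = 0.95, limma). Over all 18 response genes the median log2 ratio was -0.03, with 5 above 0 and 13 below. An unadjusted p under 0.05 was seen for 2 of the 18, Pax1 among them, beside 5.07% of all genes. The fall of Pax1 thus stood beside Gli1, Ptch1 and Hhip, whose mean ratios were 0.08, 0.29 and -0.07.

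**Figure D4:**
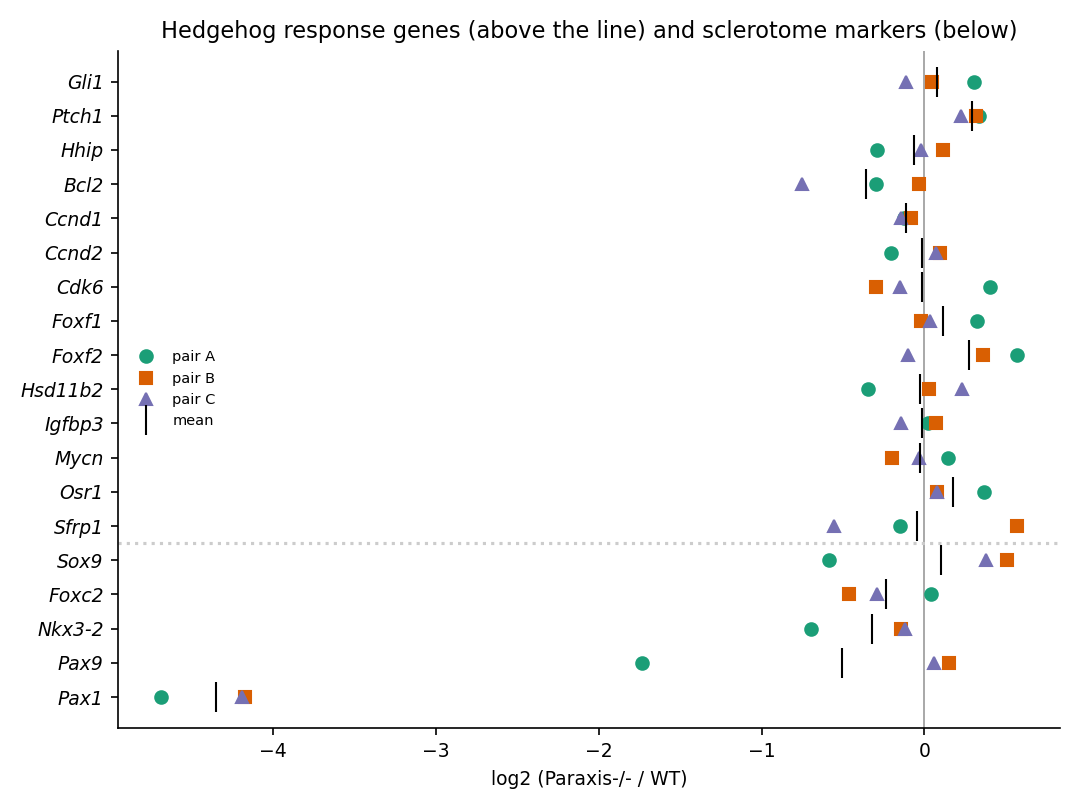
Log2 ratio of Paraxis-/- over WT in pairs A, B and C (points) and their mean (vertical bar) for Gli1, Ptch1, Hhip and 11 other hedgehog response genes (above the dotted line), and for 5 sclerotome markers (below it). Pax1 lies between -4.69 and -4.18, while no gene above the line averages outside -0.36 to 0.29.

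Genes that hedgehog signalling induces in the ventral neural tube, a tissue next to the somites, were also near 0. Of 7 tested none was called (limma) and 1 had an unadjusted p under 0.05, beside 5.07% of all genes. Nkx2-9 had 0.14, 0.17 and 0.25 in pairs A, B and C (adjusted p = 0.95). Foxa2, the floor plate factor, had 0.49, 0.02 and 0.05. Olig2, of motor neuron progenitors, had -0.82, 0.11 and 0.18, and Nkx6-1 had -0.19, 0.33 and 0.15. Across the 9 tested neural tube markers the mean level was between 9.32 and 9.63 in the Paraxis-/- pools and between 9.30 and 9.77 in the WT pools.

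Markers of cell types beside the paraxial mesoderm moved between the pools, and they are given because hedgehog genes are expressed in several of them. All 12 primitive blood markers averaged above 0, beside 9974 of all 19335 genes. Their pair medians were 0.49, 0.88 and -0.08 in pairs A, B and C. Their mean level was between 10.696 and 11.12 in the Paraxis-/- pools and between 10.21 and 10.72 in the WT pools. The transcription factor Tal1 and the globin Hba-a1 had log2 ratios of 0.80 and 0.67. None of the 12 passed the threshold (limma), while 5 had an unadjusted p under 0.05, beside 5.07% of all genes. Of 11 markers of gut endoderm, which also makes Shh, 10 averaged above 0, with pair medians of 0.49, 0.01 and 0.02 in pairs A, B and C, and without pair A 7 of the 11 were above 0. Their mean levels were between 8.66 and 8.79 in the Paraxis-/- pools and between 8.17 and 8.65 in the WT pools. None of the 11 passed the threshold (limma), and 2 had an unadjusted p under 0.05, beside 5.07% of all genes. In that list Hhex had the smallest p (0.71, SE 0.10, adjusted p = 0.37) and Sox17 had 0.29 (SE 0.07).

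Surface ectoderm markers had mean levels between 9.29 and 9.45 in the Paraxis-/- pools and between 9.005 and 9.37 in the WT pools, with 7 of 8 above 0 on average. Their pair medians were 0.29, 0.10 and 0.08, and without pair A the median was 0.07. Wnt6, a secreted signal of that tissue, had 0.31, 0.11 and 0.23 in pairs A, B and C. Of 9 lateral plate and splanchnic mesoderm markers, 5 averaged above 0, with mean levels between 8.28 and 8.54 in the Paraxis-/- pools and between 8.32 and 8.45 in the WT pools. Tbx5, of the forelimb field and heart, averaged 0.50 (SE 0.08, adjusted p = 0.47, limma). The part of these tissues in the hedgehog values was not tested.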

How the data were processed

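RNA pools were compared on 6 two-colour Agilent arrays, 2 for each of 3 pairs of pools. Agilent Feature Extraction gave the median intensity and local background of each spot, in release 10.7.3.1 for slide 1 (pair A) and 10.5.1.1 for slide 2 (pairs B and C) per the file headers, whereas the submitters' processing notes name 8.5.1.1. The series matrix deposited by the authors holds log10 ratios of Cy5 over Cy3, with a median of 0 in each column, and differed from the scanner files by at most 5e-11.

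Intensities were corrected with normexp (offset 50) and normalized by loess within arrays in limma 3.58.1 under R 4.3.3 (data.table, version 1.17.8). The 1639 control spots and 438 to 620 outlier spots per array were left out. Ratios were turned to Paraxis-/- over WT, the 2 arrays of each pair were averaged (n = 3 pairs), and pool levels are log2 values after Aquantile normalization. Probes well above background in at least 4 of 6 measurements of either genotype were kept (28639 of 41174, and 14 of the 17 hedgehog probes), and the brightest kept probe stood for a gene. The mean over pairs was tested for a difference from 0 (lmFit and eBayes, 2-sided) and p-values were adjusted by Benjamini-Hochberg over 19335 genes, or over 28422 probes for probe values, and the procedure was tested on simulated data. The labels call the pools biological replicates, and pairs come from shared arrays. On 2 arrays the titles name other pools than the descriptions do, and the pools here follow the titles. The number of arrays limits the precision.

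The genes and lists were chosen with earlier results of these data known. Named are the 9 genes with every probe, Tcf15, all sclerotome markers, up to 4 genes with the smallest p in each other list, and the 3 genes nearest to Ptch1. The values of 2 listed genes are not reported here, although the counts and medians of their lists include them. Gene symbols were brought up to date with a RefSeq listing through the accession of 26690 probes, the symbol of 5189 and a synonym of 952, while 8343 were left as they stood. The array design placed the probes on mm9, per the file headers.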

Additional observations from a re-analysis of the deposited data

How the results depend on the processing

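None of the 9 hedgehog genes or their probes passed the threshold under any of 17 alternatives (limma), and the smallest adjusted p was 0.13 for both, with 6 arrays and no replicate block, which counts dye swaps as replicates. The 17 are not separate checks of a ratio. Dropping the filter on dim probes, or asking for signal above background in all measurements, gave back the main ratio of each of the 9 genes. Both fits to 6 arrays did so too. Averaging probes left genes with 1 kept probe unchanged, and the series matrix gave the same ratios as the Agilent processed signals. With that limit, Shh and Ptch1 stayed above 0 in all 17, at 0.06 to 0.26 and 0.18 to 0.36. Gli2, Boc and Gas1 stayed below 0 in all 17, at -0.28 to -0.05, -0.46 to -0.11 and -0.56 to -0.15. The other genes turned in some. Smo was 0.0089 with median centring. Gli1 was -0.0338 on slide 2 alone, which is the same as leaving out pair A, and -0.0654 with Paraxis-/- in Cy5 alone. Gli3 was -0.0131 with slide as a block and -0.1098 with WT in Cy5 alone, and leaving out 1 pair gave -0.0621 (without pair C) to 0.0909. Hhip was 0.0468 on slide 2 alone, and leaving out 1 pair gave -0.1558 to 0.0468. The causes were not tested. List medians also moved. That of the 17 cilium genes was 0.07 and ran from -0.0005 with WT in Cy5 alone to 0.1431 with median centring, the 4 other receptors (0.17) ran from 0.0695 to 0.3751, with WT and with Paraxis-/- in Cy5 alone, and the 18 response genes (-0.03) from -0.1262 with WT in Cy5 alone to 0.0391 with median centring. Leaving out Tcf15 or Pax1 from marker levels, and pair A from marker lists of other cell types, was chosen after seeing the data.

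The pair of pools as a replicate block over 6 arrays with a dye term called 40 of all genes, against 4 for the 3 pair means, and changed the call of no hedgehog gene (smallest adjusted p 0.47, for Ptch1). No replicate block gave 68, slide as a block 76, scale normalization between arrays 18, WT in Cy5 alone 19, Paraxis-/- in Cy5 alone 2 and slide 2 alone 2. Leaving out 1 pair gave 0 to 2 calls, and the 0 was without pair B, where 729 genes had an unadjusted p under 0.05. Slide 1 held 1 pair, so it gave no test of its own. The median of all genes moved by less than 0.1 under every setting, at most to 0.03 with median centring.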
